A study of Mus musculus with 8 samples.

Results

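The transcripts described here are those of the NF-kB pathway, of the chemokines and of complement, measured in primary tubular epithelial cells (TECs) from mouse kidney. The members were 39 genes listed by name together with every row of the table whose symbol was that of a CC chemokine (Ccl followed by a number), a CXC chemokine (Cxcl followed by a number) or Cx3cl1. Of the 39 named genes 34 were measured, and 21 chemokines were measured of 33 with such symbols in the gene annotation, which gave 55 members among 14145 genes. Traf1, Csf2, Saa3, Cfb and C4b were not analysed here.

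The study holds 8 RNA-seq libraries, 4 from TECs lacking Aldh2 (KO) and 4 from wild-type TECs (WT). Aldh2 is the mitochondrial enzyme that oxidises acetaldehyde and aldehydes formed from lipids, and the series title names the knockout as one of tubular epithelial cells. Both groups were grown in a serum-containing medium and left untreated. The labels name neither the promoter that drove the deletion nor the strain or age of the mice, and they do not tie libraries to animals. The p-values below therefore describe the spread among these 8 libraries, part of which may be technical.

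NF-kB is a family of paired transcription factors held in the cytoplasm by IkB proteins. In the canonical route, signals from Toll-like, interleukin and TNF receptors activate the IKK complex, IkB is degraded, and dimers that contain Rela enter the nucleus. The non-canonical route runs through Chuk and ends in dimers of Relb with the processed product of Nfkb2. Many targets of these dimers feed back on the pathway (Nfkbia, Tnfaip3) or recruit leukocytes (chemokines, adhesion molecules), and injured tubular epithelium is a known source of chemokines and of complement C3.

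To show the sequence through which these factors are known to act, bases 100 to 31 before the transcription start are given for 5 members whose values are described below. They are Il6 (GRCm38.p6 chr5:30013014-30013083, plus strand), Cxcl1 (chr5:90891145-90891214, plus strand), Cxcl2 (chr5:90903799-90903868, plus strand), Rel (chr11:23771000-23771069, minus strand) and Tnip1 (chr11:54962971-54963040, minus strand). The sequences are from RefSeq, run 5′ to 3′ on the gene's strand, and carry in capitals the bases that match a kappa B motif.
Il6: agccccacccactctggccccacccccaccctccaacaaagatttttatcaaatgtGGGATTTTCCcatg
Cxcl1: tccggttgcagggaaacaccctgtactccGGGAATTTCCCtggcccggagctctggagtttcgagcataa
Cxcl2: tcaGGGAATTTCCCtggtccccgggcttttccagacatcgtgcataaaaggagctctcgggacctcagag
Rel: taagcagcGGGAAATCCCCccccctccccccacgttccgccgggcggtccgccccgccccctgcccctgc
Tnip1: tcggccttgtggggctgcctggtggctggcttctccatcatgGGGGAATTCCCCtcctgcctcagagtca
Cxcl1 and Cxcl2, neighbours that encode neutrophil attractants, carried the same run of letters, GGGAATTTCCC. The nearest match to the start in these stretches was that of Il6, whose GGGATTTTCC began 44 bases before it. Both motifs searched, the kappa B consensus and GGANNTTCC, were sought on both strands and overlap each other. Among windows of 250 bases before to 50 bases after a start, 24 of the 48 windows of the 39 members matched in the RefSeq table held either motif in all, against 3512 of 32851 windows of all genes (10.7%). Windows of Birc3, Cx3cl1 and Rela held neither. A match describes letters in the window, and binding was not measured.

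Aldh2 transcript itself (ENSMUSG00000029455, GRCm38 chromosome 5, 121566027 to 121593824) was at 0.88 to 1.64 FPKM (reads or fragments scaled to gene length and library depth) in KO libraries, against 23.69 to 31.08 FPKM in WT libraries. Its log2 difference was -3.61 (limma, adjusted p = 3.43e-05), and every KO library lay below every WT library. Libraries of a group differed beyond counting error in every pairing, with a chi-square of 11.7 to 329.7 per gene. Library depths were 17890000 to 18760000 reads or fragments in KO and 17050000 to 17760000 in WT. By Xist and Ddx3y, KO libraries 1 and 2 were female and KO 3 and 4 were male, and so were all 4 WT libraries, so that sex and whatever else separates KO 1 and 2 from KO 3 and 4 cannot be told apart. Of the tubular markers Epcam, Cdh1, Krt8 and Krt18 were present in every library, while Slc34a1 and Cubn were not among the genes analysed. Levels were uneven, and 5 of 10 measured tubular markers had the higher mean in KO. Epcam averaged 61.4 FPKM in KO and 132 FPKM in WT, and Cdh1 78.8 and 163 FPKM. Krt8 averaged 1520 FPKM in KO and 983 FPKM in WT, and ran from 266.88 to 3553.02 FPKM within KO. Transcripts of macrophages were present as well: 14 of 15 markers had the higher mean in KO, and their summed FPKM was 622, 1854, 244 and 1182 in KO 1 to 4, against 1117, 107, 122 and 122 in WT 1 to 4. Lyz2 made up most of the sum in KO 2 (990.32 FPKM) and WT 1 (674.09 FPKM). In WT 4 it was Cd14 (71.65 FPKM), the marker with the lower mean in KO. The like sums of WT 2 to 4 thus do not mean like levels of each marker. WT 4 was below WT 2 and 3 for Adgre1 (0.16 against 1.43 and 1.32 FPKM) and above them for Csf1r (9.26 against 4.78 and 4.98 FPKM). Adgre1 and Csf1r were above 0 in all 8 libraries, and Itgam was at 0 in WT 4. None of 8 neutrophil and lymphocyte markers was measured.

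No member passed the threshold between KO and WT. With limma on log2(FPKM + 1), and adjustment over all genes at 0.05, 0 of 55 members passed, and 11 of 14145 genes did (0.0778%). The count was also 0 with limma-voom on reads recovered from the FPKM. Unadjusted p was under 0.05 for 8 members (14.5%), against 2714 of all genes (19.2%). Log2 differences were positive for 26 members and negative for 29, with a median of -0.05, beside -0.06 over all genes. All log2 differences are KO minus WT on the log2(FPKM + 1) scale, which understates the change of genes at low levels. In this bulk RNA, fewer cells of a type and less RNA per cell cannot be told apart.

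**Figure D1:**
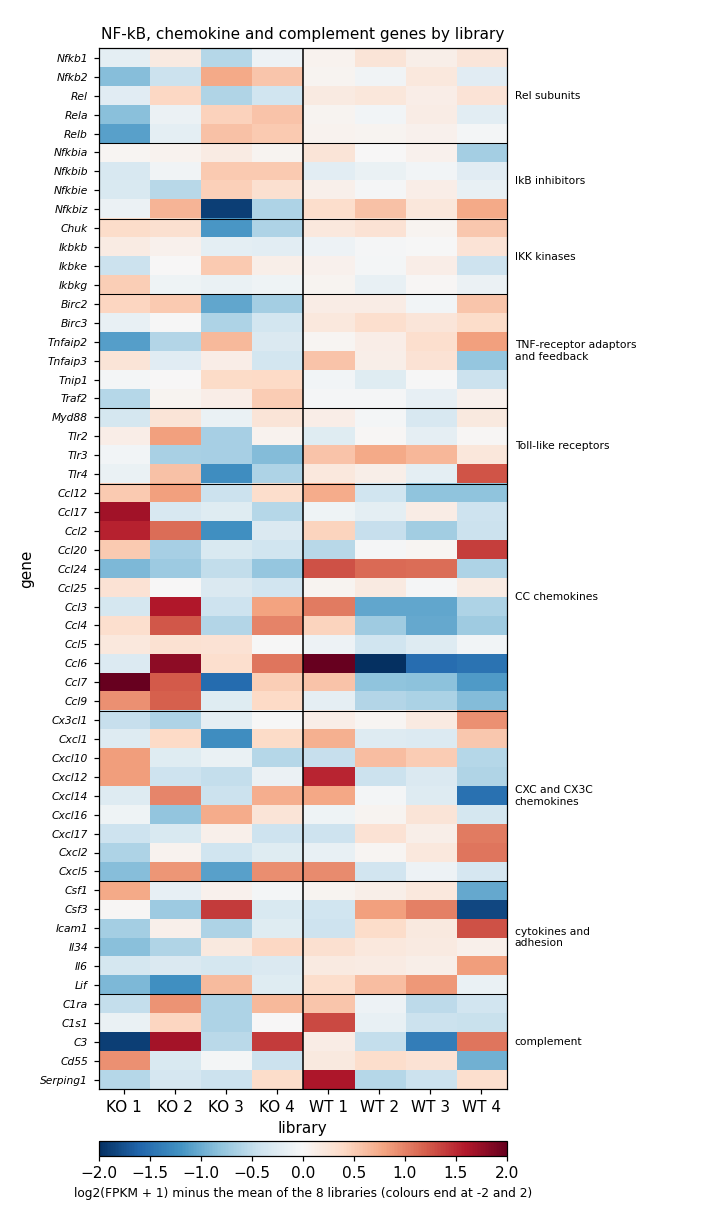
Level of each of the 55 members in each library, as log2(FPKM + 1) minus the member's mean over all 8 libraries, with KO 1 to 4 left of WT 1 to 4 and members grouped by role. KO 3 and 4 often take the opposite colour to KO 1 and 2, and WT 1 stands apart from WT 2 to 4 in several CC chemokines.

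The groups did not overlap for 5 members. Ccl5 was higher in every KO library than in any WT library (1 member, against 4.76% of all genes), and Tlr3, Birc3, Cx3cl1 and Il6 were lower (4 members, against 6.86% of all genes). The share of lower members is near that of the whole table, and the share of higher members, on 1 gene, is under it. Leaving out 1 library gave 5 to 11 such members. Without KO 2 there were 1 higher and 8 lower, without KO 3 there were 3 higher and 7 lower, and without WT 1 there were 5 higher and 6 lower. The share of all genes that did not overlap also grew, to 10.4% higher and 17.2% lower without KO 2, 6.53% and 8.38% without KO 3, and 7.13% and 9.23% without WT 1.

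Tlr3, the endosomal receptor for double-stranded RNA, had the lowest adjusted p of the members. It had 5.78, 3.48, 3.42 and 2.86 FPKM in KO 1 to 4, against 9.42, 10.86, 10.08 and 7.23 FPKM in WT 1 to 4. The highest KO library was below the lowest WT library. The KO mean of 3.88 ± 1.29 FPKM was 41.3% of the WT mean of 9.40 ± 1.56 FPKM (SD, n = 4 each), and the log2 difference of -1.11 ± 0.22 (SE) had adjusted p = 0.0996. Without KO 2 the adjusted p was 0.0372 (limma), with a log2 difference of -1.08. The same fit passed 1139 of all genes, against 11 with every library. Tlr3 lies on chromosome 8 (45395665 to 45411080, minus strand).

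Birc3, a ubiquitin ligase of the TNF receptor complex, showed a smaller difference with little spread in WT. Its values were 4.10, 4.58, 2.66 and 3.38 FPKM in KO and 5.50, 6.08, 5.64 and 6.23 FPKM in WT. The log2 difference was -0.57 ± 0.18 with adjusted p = 0.177 (limma). Birc2, its neighbour on chromosome 9 and a ligase of the same kind, overlapped between groups, with 8.57, 9.29, 2.47 and 3.44 FPKM in KO, against 6.89, 6.90, 5.84 and 9.46 FPKM in WT. KO 1 and 2 were thus within the WT range for Birc2, and KO 3 and 4 below it.

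Cx3cl1, the membrane-tethered chemokine of the CX3C class, had 5.68, 5.03, 7.14 and 8.17 FPKM in KO and 9.15, 8.42, 9.46 and 16.27 FPKM in WT. The gap between KO 4 and WT 2, the nearest libraries of the groups, was small beside the spread within WT, where WT 4 was highest. The log2 difference was -0.63 ± 0.24 (adjusted p = 0.213, limma).

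Il6, an interleukin and a classical NF-kB target, was close to undetected in KO. It was named after its values were seen, since its mean was under the level set for naming. Recovered reads were 0, 2, 0 and 2 in KO 1 to 4, against 19, 18, 17 and 54 in WT 1 to 4, or 4 reads in all against 108. Each KO library was under a floor of 3 reads, so no fold is given. The log2 difference was -0.65 ± 0.19 (adjusted p = 0.154, limma), and WT 4 held the most reads.

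Ccl5, an attractant of T cells and monocytes, was the one member higher without overlap. It had 1.36, 1.51, 1.50 and 1.03 FPKM in KO, against 0.90, 0.55, 0.70 and 0.96 FPKM in WT. The values rest on 18 to 27 reads per KO library and 9 to 16 per WT library, and KO 4 and WT 4 nearly met. The log2 difference was 0.40 ± 0.16 (adjusted p = 0.232, limma). In the male libraries alone the log2 difference was 0.35 for Ccl5, -0.41 for Cx3cl1 and -0.65 for Il6, with adjusted p of 0.139, 0.233 and 0.0625 in that order (limma).

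**Figure D2:**
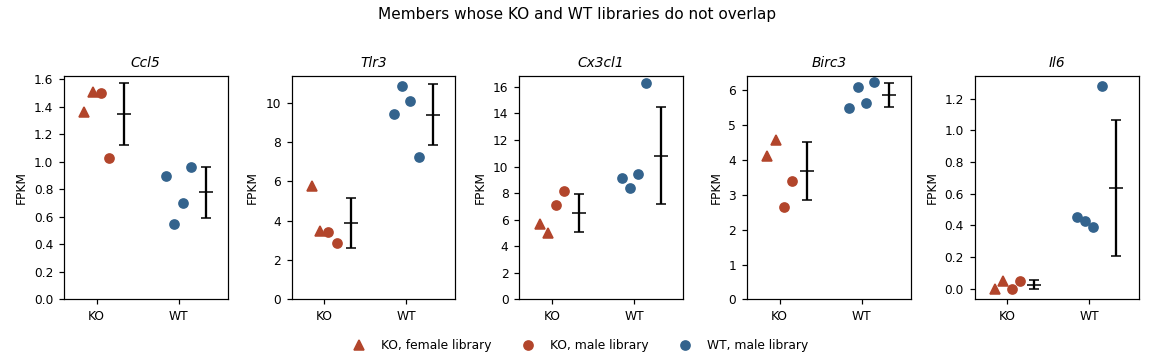
FPKM per library of the 5 members whose groups did not overlap, KO left of WT, with triangles for female and circles for male libraries and black bars for the mean ± SD (n = 4). Tlr3, Birc3, Cx3cl1 and Il6 have all KO points below all WT points, and Ccl5 has all above.

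The Rel subunits, the core of the pathway, differed more among the KO libraries than between the groups. Rela, the main activating subunit of the canonical route, had 35.93, 60.26, 89.98 and 96.77 FPKM in KO 1 to 4, against 67.58, 62.66, 72.36 and 56.14 FPKM in WT 1 to 4. Nfkb2 had 17.52, 23.74, 55.76 and 48.05 FPKM in KO and 33.63, 30.87, 37.58 and 27.65 FPKM in WT. Relb, the partner of Nfkb2, had 4.60, 9.47, 16.89 and 16.19 FPKM in KO and 11.51, 11.42, 11.73 and 10.58 FPKM in WT. For Nfkb2 and Relb, KO 1 and 2 lay below every WT library and KO 3 and 4 above every one. Their log2 differences over all 8 libraries were 0.02 ± 0.34 for Nfkb2 and -0.09 ± 0.34 for Relb, which is small beside the spread within KO.

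Nfkb1, the precursor of the DNA-binding partner of Rela, and Rel, a subunit best known from lymphocytes, were below every WT library in KO 3 and 4. Nfkb1 had 12.67, 16.57, 9.51 and 13.51 FPKM in KO and 15.45, 17.55, 15.95 and 17.41 FPKM in WT. Rel had 0.87, 1.94, 0.45 and 0.66 FPKM in KO and 1.50, 1.57, 1.42 and 1.66 FPKM in WT. Only KO 2 reached the WT range of Nfkb1, and it exceeded that of Rel. Without KO 2, Rel was lower in KO with a log2 difference of -0.62 (adjusted p = 0.048, limma). KO 2 was the KO library highest in Rel, so leaving it out widens the gap. In that fit 1139 of all genes passed, against 11 with every library.

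Of the IkB proteins, Nfkbia, the inhibitor that NF-kB itself induces, hardly varied in KO. It had 32.35, 33.15, 35.53 and 32.64 FPKM in KO and 37.80, 31.48, 33.58 and 19.27 FPKM in WT, where WT 4 was lowest. Nfkbib had 12.12, 14.56, 22.52 and 22.65 FPKM in KO and 13.13, 13.93, 14.72 and 12.95 FPKM in WT. Nfkbie had 7.60, 6.25, 13.82 and 12.24 FPKM in KO and 10.42, 9.47, 10.65 and 8.57 FPKM in WT. Both inhibitors were above every WT library in KO 3 and 4. Nfkbiz, an atypical nuclear IkB that modulates transcription, was instead below every WT library there, with 13.07, 23.60, 3.16 and 8.97 FPKM in KO, against 18.51, 21.88, 16.88 and 24.90 FPKM in WT.

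Among the kinases, Chuk (the alpha catalytic subunit of IKK) had 16.62, 15.90, 5.08 and 7.83 FPKM in KO and 14.74, 15.56, 13.12 and 18.85 FPKM in WT, again with KO 3 and 4 lowest. Ikbkb, the beta subunit, had 5.71, 5.33, 4.25 and 4.19 FPKM in KO and 4.55, 4.92, 4.97 and 6.25 FPKM in WT. Ikbkg, the regulatory subunit encoded on the X chromosome, was highest in KO 1 (19.83 FPKM) and at 12.31 to 14.46 FPKM in the other 7 libraries. Ikbke, a related kinase of antiviral signalling, had 2.46 to 5.66 FPKM in KO and 2.50 to 4.11 FPKM in WT. The median log2 difference was -0.09 over the 5 Rel subunits, 0.07 over the 4 IkB members and 0.01 over the 4 kinases, all near the -0.06 of all genes.

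**Figure D3:**
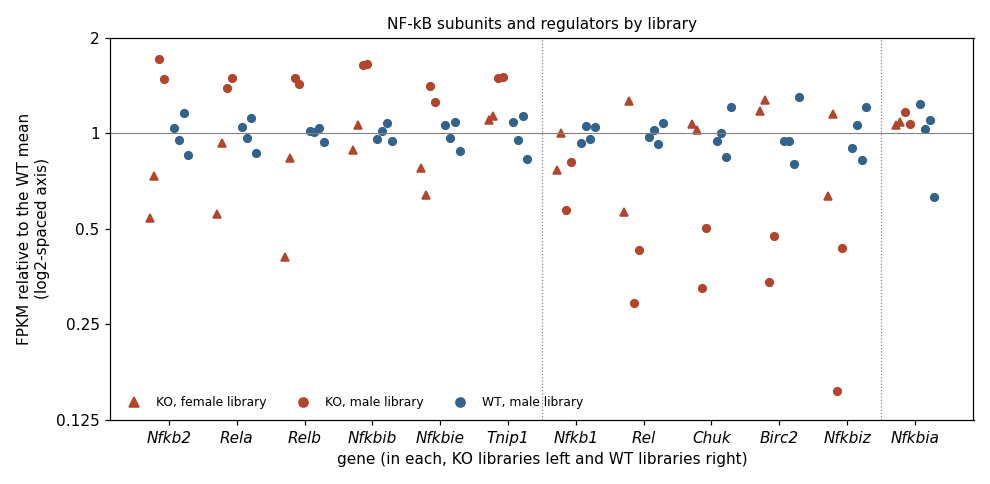
FPKM of Rel subunits, IkB members, kinases and regulators in each library relative to the WT mean, on an axis spaced in log2, with KO left of WT. Nfkb2, Rela, Relb, Nfkbib, Nfkbie and Tnip1 are above all WT libraries in KO 3 and 4, Nfkb1, Rel, Chuk, Birc2 and Nfkbiz below them, and Nfkbia stays near the WT mean in every KO library.

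The split of the KO libraries was set out by comparing each pair with the same 4 WT libraries. In KO 3 and 4 together, 9 members lay above every WT library (24.9% of all genes did) and 13 below (36.3% of all genes). In KO 1 and 2 together, 5 members lay above every WT library (12.6% of all genes), namely Tlr2, Ccl2, Ccl5, Ccl7 and Ccl9. Another 11 lay below every WT library (12.7% of all genes). They were Nfkb2, Relb, Nfkbie, Birc3, Tnfaip2, Tlr3, Ccl24, Cx3cl1, Il34, Il6 and Lif. These 11 are a larger share of the 55 members than that over all genes, and the difference was not tested. Both comparisons share the WT libraries. With the 6 male libraries alone, KO 3 and 4 against WT 1 to 4, 15 members passed the threshold of 0.05. Of these 6 were higher (17.6% of all genes were), and 9 were lower (26.7% of all genes). The members' shares in the male libraries were thus no larger than those of the whole table, whose median log2 difference there was -0.11.

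In the male libraries Nfkbib rose by 0.69 (log2, adjusted p = 0.00355), Nfkb2 by 0.67 (0.0109), Tnip1 by 0.57 (0.017), Rela by 0.53 (0.0163), Relb by 0.51 (0.00626) and Nfkbie by 0.38 (0.0417), by limma. Nfkbiz fell, with a log2 difference of -1.73 (adjusted p = 0.00846), and so did Tlr3 (-1.32, 0.0034), Tlr4 (-1.27, 0.0435), Chuk (-1.17, 0.00521), Birc2 (-1.06, 0.00718), Birc3 (-0.78, 0.00478), Rel (-0.71, 0.00739), Nfkb1 (-0.51, 0.0308) and Ccl25 (-0.42, 0.0465). These directions went with base composition. The 6 higher members had a GC content of 55.4% to 59.4% in their longest transcript, and the 9 lower members 39.2% to 50.1%. Over all genes past the threshold in the male libraries, the median GC content was 54.9% for the higher and 44.3% for the lower, and the median length was 2793 and 6097 bases.

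With each library's trend on length and GC content removed, 0 members passed over all 8 libraries. In the male libraries alone, with the trend removed, 8 members passed, an alternative added after seeing the data. Nfkbiz (-1.62), Chuk (-0.49) and Birc3 (-0.41) were still lower, joined by Il34 (-0.53). Nfkb1 (0.47), Ikbkb (0.49), Ikbkg (0.71) and Ccl9 (1.03) were higher, and for Nfkb1 this reverses the direction given above. All 6 members higher before removal, Rela, Nfkb2, Relb, Nfkbib, Nfkbie and Tnip1, did not pass. Of those lower before removal, Tlr3 (-0.59, adjusted p = 0.118, limma), Birc2 (-0.52, 0.0511) and Tlr4 (-0.49, 0.323) did not pass either. Rel (0.15, 0.389) and Ccl25 (0.55, 0.0567) also did not pass, and their log2 differences were then positive. That of Ccl5 was then -0.08 in the male libraries (adjusted p = 0.768, limma). Over all 8 libraries with the trend removed it was 0.15 (adjusted p = 0.654, limma). The split of all genes past the threshold moved as well, to 1725 higher and 1518 lower, beside 2496 higher and 3779 lower without removal.

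**Figure D4:**
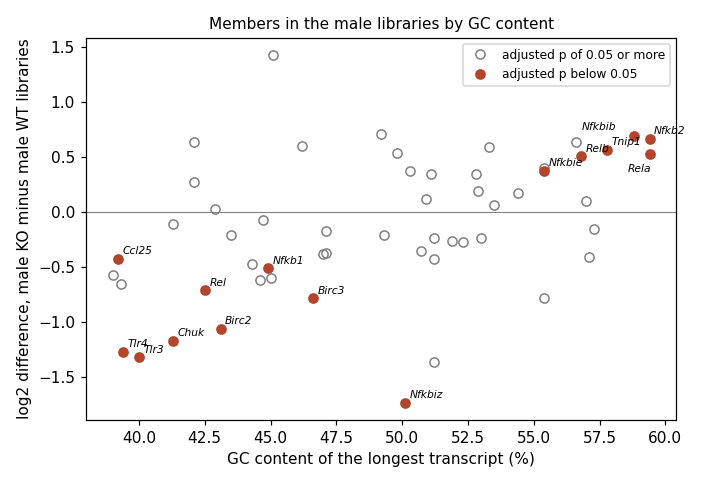
GC content of the longest transcript (percent) against the log2 difference, KO 3 and 4 minus WT 1 to 4, for the members in the male libraries. The 6 members past the threshold on the higher side lie at 55.4% to 59.4% GC and the 9 on the lower side at 39.2% to 50.1%.

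The TNF receptor adaptors and feedback genes also include Tnip1, Tnfaip2, Tnfaip3 and Traf2, whose groups overlapped. Tnip1, which works with Tnfaip3 to restrain the pathway, had 22.91, 23.67, 31.02 and 31.37 FPKM in KO and 22.69, 19.84, 23.55 and 17.26 FPKM in WT (log2 difference 0.37 ± 0.18, adjusted p = 0.289, limma). Tnfaip2, a gene named for its induction by TNF, had 10.07, 14.80, 36.30 and 18.46 FPKM in KO and 23.35, 25.13, 29.05 and 41.19 FPKM in WT (-0.67 ± 0.35, adjusted p = 0.315). KO 3 was the exception among KO libraries, the other 3 lying below every WT library. Tnfaip3, the ubiquitin-editing enzyme, was at 10.63 to 16.96 FPKM in KO and 7.83 to 21.34 FPKM in WT, and the adaptor Traf2 at 4.51 to 10.54 FPKM in KO and 6.29 to 7.61 FPKM in WT.

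The other Toll-like receptors overlapped between groups. Tlr4, which senses bacterial lipopolysaccharide, had 3.69, 6.70, 1.18 and 2.35 FPKM in KO and 4.94, 4.58, 3.50 and 11.26 FPKM in WT. Tlr2, a sensor of bacterial lipoproteins, had 11.24, 18.62, 6.0 and 10.69 FPKM in KO and 8.45, 10.32, 8.86 and 10.29 FPKM in WT. Myd88, the adaptor of both, was at 5.21 to 8.43 FPKM in KO and 5.31 to 8.08 FPKM in WT. Levels of Myd88 were thus nearly the same range in both groups (log2 difference 0.01 ± 0.20).

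Among 12 CC chemokines 9 had the higher mean in KO and 3 the lower, with a median log2 difference of 0.60 and none past the threshold. That median was 1.01 with KO 1 and 2 alone against WT, and 0.15 in the male libraries. Ccl9, an attractant of myeloid cells in mice, had 2.50, 3.23, 0.56 and 1.43 FPKM in KO and 0.63, 0.23, 0.20 and 0.02 FPKM in WT. Only WT 1 exceeded the lowest KO library, KO 3. The means were 1.93 ± 1.17 FPKM in KO and 0.270 ± 0.256 FPKM in WT (SD, n = 4 each), and the log2 difference of 1.13 ± 0.31 had adjusted p = 0.152 (limma). Ccl4, which attracts monocytes and T cells, had 1.81, 4.23, 0.48 and 3.42 FPKM in KO and 2.02, 0.36, 0.09 and 0.35 FPKM in WT (1.00 ± 0.43, adjusted p = 0.25). In WT 1 to 4, Ccl9 rests on 33, 12, 11 and 1 reads and Ccl4 on 23, 4, 1 and 4.

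Ccl24, an attractant of eosinophils, went the other way. It had 0, 0.13, 0.33 and 0.09 FPKM in KO, against 3.49, 3.08, 3.04 and 0.22 FPKM in WT, on 13 reads in all against 221. WT 4 was within the KO range, and the other 3 WT libraries were far above it. The log2 difference was -1.45 ± 0.38 (adjusted p = 0.148, limma), and without WT 4 it was -1.89 (adjusted p = 0.0179). Leaving out WT 4 takes away the overlap itself, and 8 of all genes passed in that fit. With any other single library left out, the adjusted p was 0.0776 to 0.431 (limma).

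The monocyte attractants Ccl2 and Ccl7, neighbours on chromosome 11, were highest in the female KO libraries. Ccl2 had 29.02, 21.51, 3.42 and 7.45 FPKM in KO and 13.13, 6.50, 5.39 and 6.64 FPKM in WT. Ccl7 had 20.07, 11.23, 0.80 and 6.33 FPKM in KO and 6.72, 1.98, 1.97 and 1.37 FPKM in WT. Both genes thus spanned a wider range in KO than the WT libraries did, with KO 3 lowest of all 8.

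WT 1 held the highest WT value of Ccl2, Ccl3, Ccl4, Ccl6, Ccl7, Ccl9 and Ccl12, and also the highest macrophage marker sum of WT. Ccl6, a myeloid chemokine of rodents, had 5.17, 24.85, 8.41 and 14.64 FPKM in KO and 30.81, 0.85, 1.60 and 1.67 FPKM in WT. Its log2 difference was 1.46 ± 0.84 with all libraries and 2.40 (adjusted p = 0.132, limma) without WT 1. Ccl3 was at 0.77 to 6.13 FPKM in KO and 0.15 to 3.86 FPKM in WT, and Ccl12 at 0.30 to 2.08 FPKM in KO and 0 to 1.94 FPKM in WT. The summed FPKM of the 12 CC chemokines was 74.3, 78.3, 20.5 and 42.0 in KO and 67.4, 19.5, 19.0 and 24.8 in WT. The macrophage marker sum was likewise lowest in KO 3 within KO and highest in WT 1 within WT. KO 1 and KO 4 did not follow it. The chemokine sum was 74.3 in KO 1 and 42.0 in KO 4, on marker sums of 622 and 1182. WT 1 also held the most Col1a1, a collagen gene of fibroblasts (283.23 FPKM). The part of either cell type in these levels was not tested. Without WT 1 the groups also did not overlap for Ccl3, Ccl4, Ccl6 and Ccl9, while 7.13% of all genes were then higher in KO without overlap.

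**Figure D5:**
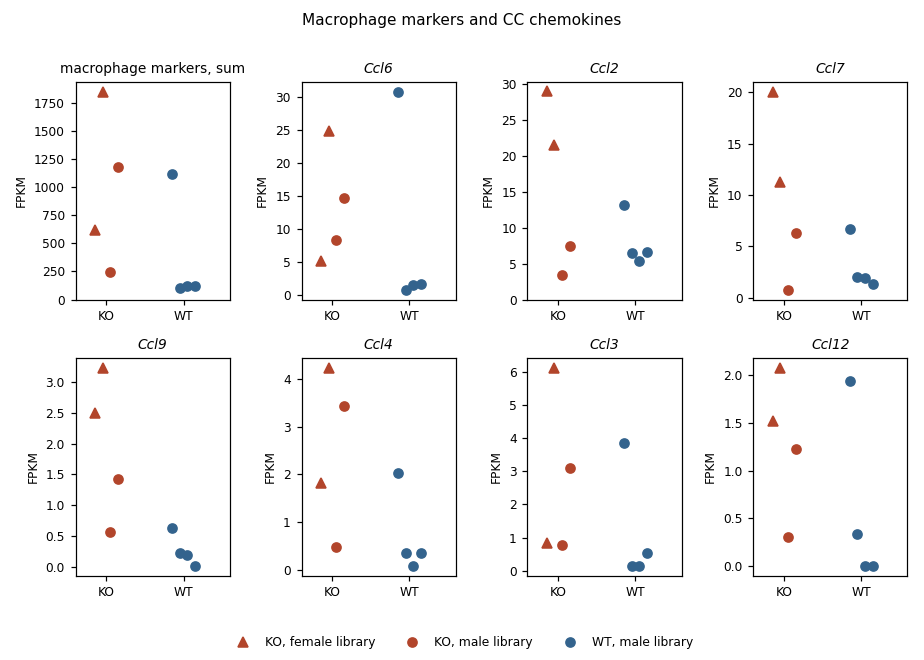
Summed FPKM of the 15 macrophage markers and FPKM of Ccl6, Ccl2, Ccl7, Ccl9, Ccl4, Ccl3 and Ccl12 in each library, KO left of WT. WT 1 stands above WT 2 to 4 in each panel, and the KO libraries spread widely, with KO 3 low in most.

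The remaining CC chemokines were low. Ccl20, which attracts lymphocytes and dendritic cells, had 2.05 to 5.92 FPKM in KO and 2.28 to 11.57 FPKM in WT. Ccl25 was at 0.47 to 1.33 FPKM in KO and 0.87 to 1.16 FPKM in WT. Ccl17 was under 1 FPKM in 7 libraries and at 4.75 FPKM in KO 1.

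Of the 9 CXC and CX3C chemokines 2 had a positive log2 difference and 7 a negative one, with a median of -0.09. Cxcl16, a transmembrane chemokine and the most abundant of them, had 24.54, 14.63, 44.33 and 31.46 FPKM in KO and 24.46, 27.03, 31.13 and 20.08 FPKM in WT. Cxcl2, with the shared kappa B run shown above, had 0.05, 0.70, 0.23 and 0.37 FPKM in KO and 0.45, 0.65, 0.87 and 2.40 FPKM in WT (log2 difference -0.58 ± 0.28, adjusted p = 0.283, limma). Its neighbour Cxcl1 had 1.85, 3.49, 0.43 and 3.41 FPKM in KO and 4.57, 1.85, 1.80 and 3.94 FPKM in WT. The same letters before the start thus stood beside overlapping groups for both.

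Cxcl10, an interferon-induced attractant of T cells, was at 2.01 to 7.02 FPKM in KO and 2.02 to 5.89 FPKM in WT. Cxcl14 had 3.12, 8.78, 2.68 and 7.18 FPKM in KO and 7.48, 3.79, 3.14 and 0.76 FPKM in WT. Cxcl5 was at 0 to 3.02 FPKM in KO and 0.63 to 3.08 FPKM in WT, and Cxcl17 was under 1 FPKM in all but WT 4 (1.74 FPKM). Cxcl12, a product of stromal cells, was at 0.14 to 1.83 FPKM in KO and 0.05 to 3.55 FPKM in WT. WT 1 was highest and also held the most Col1a1, a collagen gene of fibroblasts, at 283.23 FPKM. KO 1 had the next value of Cxcl12 (1.83 FPKM) and the least Col1a1 of all libraries (13.92 FPKM). Of 7 measured fibroblast and pericyte markers 2, the contractile genes Acta2 and Tagln, had the higher mean in KO and were highest in KO 1. Acta2 made up most of the list's summed FPKM, which was 590 to 1778 in KO and 134 to 1180 in WT. The other 5, among them Col1a1, Col1a2, Col3a1 and Pdgfrb, had the lower mean in KO, and the part of these cells in the Cxcl12 level was not tested.

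Among cytokines and adhesion genes 2 of 6 had the higher mean in KO and 4 the lower. Lif, a cytokine of the interleukin 6 family, had 13.27, 10.41, 40.26 and 21.55 FPKM in KO and 33.04, 39.94, 47.61 and 23.24 FPKM in WT (log2 difference -0.86 ± 0.39, adjusted p = 0.265, limma). Only KO 3 lay within the WT range. Icam1, an adhesion molecule for leukocytes, had 2.88, 5.65, 3.03 and 4.23 FPKM in KO and 3.63, 6.97, 6.10 and 13.97 FPKM in WT (-0.71 ± 0.34, adjusted p = 0.286).

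Csf1 and Il34, the ligands of the macrophage receptor Csf1r, differed in pattern. Csf1, the most abundant member, had 147.53, 76.89, 91.78 and 83.86 FPKM in KO and 89.94, 93.80, 99.99 and 42.00 FPKM in WT. Il34 had 9.93, 11.81, 21.31 and 24.91 FPKM in KO and 23.41, 21.47, 21.04 and 19.90 FPKM in WT, so KO 1 and 2 alone were below WT. Csf3, which drives granulocyte production, was at 1.86 to 11.43 FPKM in KO and 0.33 to 8.53 FPKM in WT.

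The 5 complement members did not separate the groups. C3, the central component, had 4.15, 58.82, 11.99 and 49.21 FPKM in KO and 19.91, 12.60, 6.30 and 38.86 FPKM in WT, so that KO 2 and 4 and WT 4 were high. The log2 difference was 0.32 ± 0.79 (adjusted p = 0.831, limma). C1s1, a protease of the first component, had 1.53, 2.73, 0.82 and 1.80 FPKM in KO and 5.94, 1.52, 1.06 and 1.05 FPKM in WT. The C1 inhibitor gene Serping1 was also highest in WT 1, with 0.30, 0.53, 0.44 and 1.49 FPKM in KO and 4.91, 0.30, 0.44 and 1.44 FPKM in WT. C1ra was at 0.79 to 4.11 FPKM in KO and 0.91 to 3.03 FPKM in WT, and the membrane regulator Cd55 at 1.29 to 4.81 FPKM in KO and 0.59 to 2.96 FPKM in WT. C1ra, C1s1 and Cd55 have close copies in the mouse genome, so the division of reads between copies is uncertain.

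Other genes of the pathway gave no call either. Of 42 measured genes of NF-kB signalling outside the members, 21 had a positive log2 difference and 21 a negative one, none passed, and the lowest adjusted p was 0.175. The 3 of lowest p were Traf6 and Tirap, which carry Toll-like receptor signals, and Otulin, a deubiquitinase. Traf6 averaged 4.41 ± 1.32 FPKM in KO and 7.33 ± 0.70 FPKM in WT (log2 difference -0.65). Tirap averaged 4.13 ± 1.38 FPKM in KO and 6.98 ± 1.01 FPKM in WT (-0.67). Otulin averaged 21.2 ± 3.62 FPKM in KO and 14.3 ± 1.87 FPKM in WT (0.53).

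Of 18 other complement genes 14 had the higher mean in KO, with a median log2 difference of 0.44 and no call. Among those with a mean of at least 1 FPKM, the lowest p belonged to C1qb, C1qc and C1qa, chains of C1q made by macrophages and counted among the macrophage markers above. C1qb had 46.52, 164.91, 29.65 and 114.33 FPKM in KO and 77.22, 17.25, 17.55 and 2.28 FPKM in WT. Of 23 chemokine receptors 4 were measured, all with the higher mean in KO. Ackr3, a scavenger of Cxcl12, had 5.61, 9.38, 1.29 and 9.58 FPKM in KO and 1.04, 0.93, 0.81 and 3.46 FPKM in WT (1.43 ± 0.50, adjusted p = 0.197, limma).

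The authors' deposited table, which carries its own tests, gave 2 members an adjusted p under 0.05, beside 0.375% of all genes. In the authors' deposited table Ccl24 had a log2 fold change of -4.0 (adjusted p = 0.027) and Il6 one of -4.78 (adjusted p = 0.0458). The authors' deposited table marked Ccl9 (2.88, adjusted p = 0.0683) and Ccl4 (1.87, adjusted p = 0.744) as up. The authors' deposited table marked Tlr3 (-1.18, adjusted p = 0.371) as down, beside Ccl24 and Il6. Among all 14145 genes the authors marked 331 as up and 477 as down. Marks were thus also given to members with an adjusted p above 0.05. Both members under 0.05 there are among those at the lowest read counts, and they had adjusted p of 0.148 and 0.154 in the limma fit above.

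For 14 members, exonic bases are shared with a gene on the opposite strand, and whether reads were counted by strand is not stated. Nfkb2, Nfkbib, Tlr3, Myd88, Cxcl16 and Ikbkg are among them.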

How the data were processed

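RNA-seq was made from total RNA of untreated primary TECs (4 KO and 4 WT libraries, grouped by sample title). The genotype field of the KO samples runs through consecutive ALDH gene names and was not used. FastQC, STAR 2.4.1d, DESeq2 and GRCm38 stand in the submitters' processing notes, which do not give the counting tool or row filter. For 14145 genes the authors deposited values under a raw-count name that carry decimals and are FPKM, scaled to gene length and depth before deposit, as the values themselves show. Multiplied by GENCODE M21 exon lengths (14129 genes), 94.9% to 95.5% of values of 1 to 200 reads lay within 0.05 of a whole read. Depths were 17050000 to 18760000, and intervals and the floor of 3 reads cover counting error only. A log2 fold change and p-values per gene, also deposited by the authors, are used only where named. The number of value columns without a sample was 0.

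Tests used limma 3.58.1 (variance trend, R 4.3.3) on log2(FPKM + 1) over all genes and all 8 libraries, genotype as the only term, Benjamini-Hochberg adjustment at 0.05, and the fit was tested on simulated data. The alternatives included limma-voom on recovered reads, pseudocounts of 0.1 and 0.5, and a filter of 1 FPKM in 4 libraries. They also included a length and GC trend removal (lowess, span 0.3), median-ratio scaling and a fit without the variance trend. The others were a sex covariate, the male libraries alone, a replicate block and left-out libraries. Members and lists were chosen with earlier results of these data known. Named in each role list were up to 4 members of lowest p with a mean of at least 1 FPKM, the 2 of highest mean, and members without overlap with a mean of at least 0.5 FPKM; of other pathway lists the 3 of lowest p with a mean of at least 1 FPKM; and Aldh2. Further members are given by their values or range and were named after these were seen. Tables and plots used Python 3.11.15, pandas 2.3.3, numpy 2.4.6 and matplotlib 3.10.9.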

Additional observations from a re-analysis of the deposited data

Results flagged for a closer look

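In 14 of 110 groups of 4 libraries, one per member and genotype, a single library stood far from the other 3, by the gap to its nearest neighbour divided by the group's range. The cutoff would flag about 1 in 20 groups if values were independent and normally spread. FPKM values of members that vary together need not be, so the count is not read as an excess over chance. KO 1 was the high library in Ccl17 (4.75 FPKM, gap 0.93 of the range) and Ikbkg (19.83 FPKM, 0.93). WT 1 was the high library in Ccl6 (30.81 FPKM, 0.97), Cxcl12 (3.55 FPKM, 0.93), C1s1 (5.94 FPKM, 0.90), Ccl3 (3.86 FPKM, 0.90), Ccl7 (6.72 FPKM, 0.89), Ccl4 (2.02 FPKM, 0.86), Cxcl5 (3.08 FPKM, 0.86), Ccl2 (13.13 FPKM, 0.84) and Ccl12 (1.94 FPKM, 0.83). WT 4 was the high library in Il6 (1.28 FPKM, 0.93) and Cx3cl1 (16.27 FPKM, 0.87) and the low one in Ccl24 (0.22 FPKM, 0.86). Without WT 1 the log2 difference was 1.31 for Ccl3, 1.47 for Ccl7, 1.32 for Ccl4, 0.82 for Ccl2 and 0.99 for Ccl12, each with an adjusted p of 0.24 to 0.5 by limma.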

How the results depend on the processing

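Against 0 members past the threshold in all 8 libraries, 10 passed with a sex covariate (3 higher, 7 lower), 15 with the male libraries alone and 8 with the male libraries and the length and GC trend removed. As the female libraries were all KO, the sex covariate leaves the genotype difference to KO 3 and 4 against WT. Its log2 differences are therefore those of the male libraries (-1.32 for Tlr3 in each), and it is not a separate view of the genotype. Leaving out 1 library gave 0 to 2, namely Rel and Tlr3 without KO 2 and Ccl24 without WT 4. The count over all genes, 11, became 3 with a pseudocount of 0.1, 7 with limma-voom, 2 with the trend removed, 4838 with a sex covariate, 6275 in the male libraries, 3243 there with the trend removed, and 1 to 1139 with 1 library left out, highest without KO 2. Members without overlap numbered 22 in the male libraries and 16 without KO 3 and 4, against 5, and 5 to 11 with 1 library left out; removal of the length and GC trend left 5, and pseudocounts, the block and the sex covariate give no such count. With a replicate block, 0 members and 1 gene passed; deviations of same-numbered libraries correlated at 0.05, -0.21, 0.60 and -0.05, so the numbers were not taken to pair them, and only KO 3 correlated best with its own number. Directions reversed past the threshold in the male libraries for Nfkbie (0.38) and Relb (0.51), and there with the trend removed for Nfkb1 (0.47) and Ikbkb (0.49); the cause was not tested. Aldh2 passed under every alternative run. For the named members, 690 of 797 values kept direction and side, 31 newly passed and 72 changed sign without passing. Adjusted p ranged over 0.0034 to 0.368 for Tlr3, 0.0179 to 0.431 for Ccl24 and 0.0293 to 0.426 for Ccl9. Low read counts limit Il6, Ccl5, Ccl24 and Cxcl2, and also Ccl3, Ccl4, Ccl9, Ccl12, Ccl17 and Cxcl17, among others. Each alternative shares libraries with the others.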
